A study of Mus musculus with 2 samples.

Results

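The genes described here are 10 genes whose products mark injury and repair of the kidney tubule: Havcr1, Lcn2, Spp1, Clu, Vcam1, Sox9, Krt8, Krt18, Krt20 and Cd44. They were chosen by name, out of 21938 protein-coding genes of GENCODE release M21 on mouse build mm10, and each was examined over its gene body plus 20 kb on either side, called its locus. The 10 loci formed 9 separate stretches of 588 kb in all, because those of Krt8 and Krt18 overlap. The study profiled open chromatin in kidney by DNase-seq, in which the enzyme DNase I cuts where DNA is not covered by nucleosomes. Both libraries came from females of strain B6CASTF1/J, the first-generation cross of C57BL/6J and CAST/EiJ mice, at 36 days of age. The labels name no treatment, injury or second condition. They number the libraries as biological replicates 1 and 2 and the females separately, but give both the same donor entry, so the spread between the libraries may be technical in part.

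Tubule cells that are damaged by low blood flow, toxins or obstruction lose transporters of the mature nephron and switch on genes for adhesion, cytoskeleton, secreted protective proteins and regeneration. The products of several of these genes, above all those of Havcr1 and Lcn2, are measured in urine or tissue as signs of acute kidney injury. In healthy kidney most of them are low or restricted to a few tubule segments, so these data show the state of their regulatory DNA in tissue that was not injured by design.

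Peaks are intervals that the authors called as open, each with a signal value, called the height here, whose scale is not stated. A stricter and a wider peak set were deposited for each library, and the stricter is meant unless the wider one is named. Replicate 1 held 124504 peaks and replicate 2 held 68056, of which 65636 peaks of replicate 1 overlapped one of replicate 2 and are called shared. Heights were lower in replicate 2 at 92.2% of shared peaks, with a median ratio of 0.659 of replicate 2 over replicate 1. Each member's height in replicate 2 is to be read against that ratio. With 1 group of 2 libraries no comparison of conditions and no test was possible, and the values of both libraries are given. As a check of the tissue, 9 of 9 tubule markers had a promoter peak in both libraries, against 60.7% of all protein-coding genes. So did 5 of 5 endothelial, 4 of 5 fibroblast and mural and 2 of 4 podocyte markers. None of 8 macrophage and leukocyte markers and none of 4 erythroid markers did, while Ins2, 1 of 5 markers of other organs, did. The tubule peaks were mostly low, with median heights of 2.90 in replicate 1 and 1.47 in replicate 2. All genes with such a peak had medians of 8.26 and 5.37. Among the tubule markers Slc12a3 was highest (7.52 and 6.54) and Aqp2 lowest (0.687 and 0.988).

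A promoter peak, meaning a peak that reaches within 1 kb of any annotated start site of the gene, was present in both libraries for 6 of the 10 genes: Spp1, Clu, Vcam1, Sox9, Krt8 and Krt18. Of all protein-coding genes 60.7% had one, so the share among the 10 genes was near that of all genes. Replicate 1 alone gave 7 of 10, against 66.9% of all genes, and replicate 2 alone gave 6 of 10, against 60.9%. The gene gained in replicate 1 was Cd44, which also entered in both libraries when the wider peak set was used, giving 7 of 10 against 64.9% of all genes. With only the higher 50% of peaks of each library, 3 of the 10 had one in both, Spp1, Clu and Krt8, against 52.8% of all genes. Havcr1 and Lcn2 had no promoter peak in either set of either library, and Krt20 had one only in the wider set of replicate 1. In whole tissue, a site that is open in few cells and a site that is weakly open in many cannot be told apart.

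Where they existed, promoter peaks of these genes were low against those of all genes. The strongest promoter peak of the 6 genes had a median height of 2.22 in replicate 1 and 1.52 in replicate 2, against 8.26 and 5.37 in the 13314 genes with a promoter peak in both libraries. Clu was the highest of the 6, at 6.19 in replicate 1 and 3.58 in replicate 2. Krt8 followed at 3.50 and 2.74. Spp1 reached 2.88 and 1.62, at different peaks in the libraries. Sox9 reached 1.57 and 1.42, and Vcam1 1.09 and 0.805. Krt18 was the lowest of the 6, at 0.891 and 0.764. Both libraries gave this order. Among genes with a promoter peak in the library, all 6 lay below the median, from the 6.93rd percentile (Krt18) to the 44.0th (Clu) in replicate 1 and from the 3.45th to the 36.2nd in replicate 2. Set in this way against its own library, Vcam1 was at the 8.91st and 4.10th percentiles, so its range over the libraries overlapped that of Krt18, while no other neighbours in the order overlapped.

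**Figure D1:**
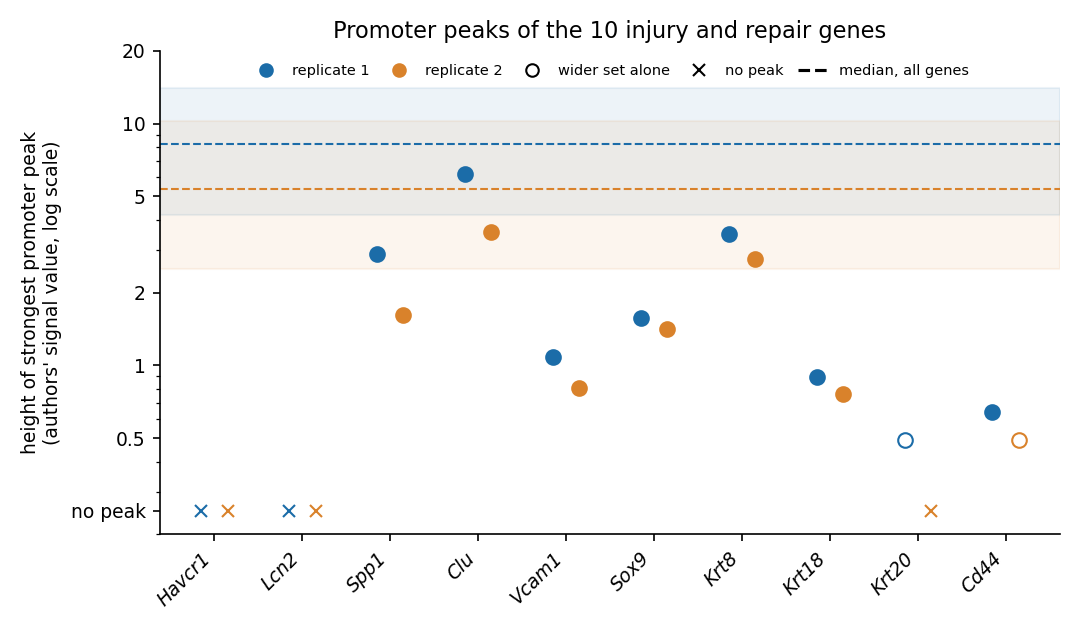
Height of the strongest promoter peak (authors' signal value, log scale) of each of the 10 genes in replicate 1 (blue) and replicate 2 (orange), with open circles for peaks of the wider set alone and crosses for none. Dashed lines are the medians of the 13314 genes with a promoter peak in both libraries (8.26 and 5.37) and bands their 25th to 75th percentiles; every promoter peak drawn lies below the median of its library.

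Away from the start sites the loci differed widely. They held 38 shared peaks, of which 9 lay within 1 kb of a member's own start, 6 within 1 kb of the start of another gene only, and 23 over 1 kb from every annotated start, called distal. By the middle of the peak, 22 were intergenic, 6 were in an exon and 5 in an intron of a member, and 5 were inside other genes. Of the 10 genes, 9 had at least 1 shared peak in the locus, against 79.1% of all genes. The density of shared peaks ran from 0 in the Havcr1 locus to 23.0 per 100 kb in the Krt8 locus, with a median of 4.84 against 4.51 for all genes. Krt8 and Spp1 were at the 98.3rd and 97.8th percentiles of all genes, Lcn2 at the 88.9th, and Cd44, Havcr1 and Sox9 at the 26.6th, 10.5th and 32.9th. Replicate 1 had a further 18 peaks in the loci that replicate 2 lacked in the stricter set, 10 of which had a counterpart in the wider set of replicate 2, and replicate 2 had 2 further peaks, both with a counterpart in the wider set of replicate 1.

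**Figure D2:**
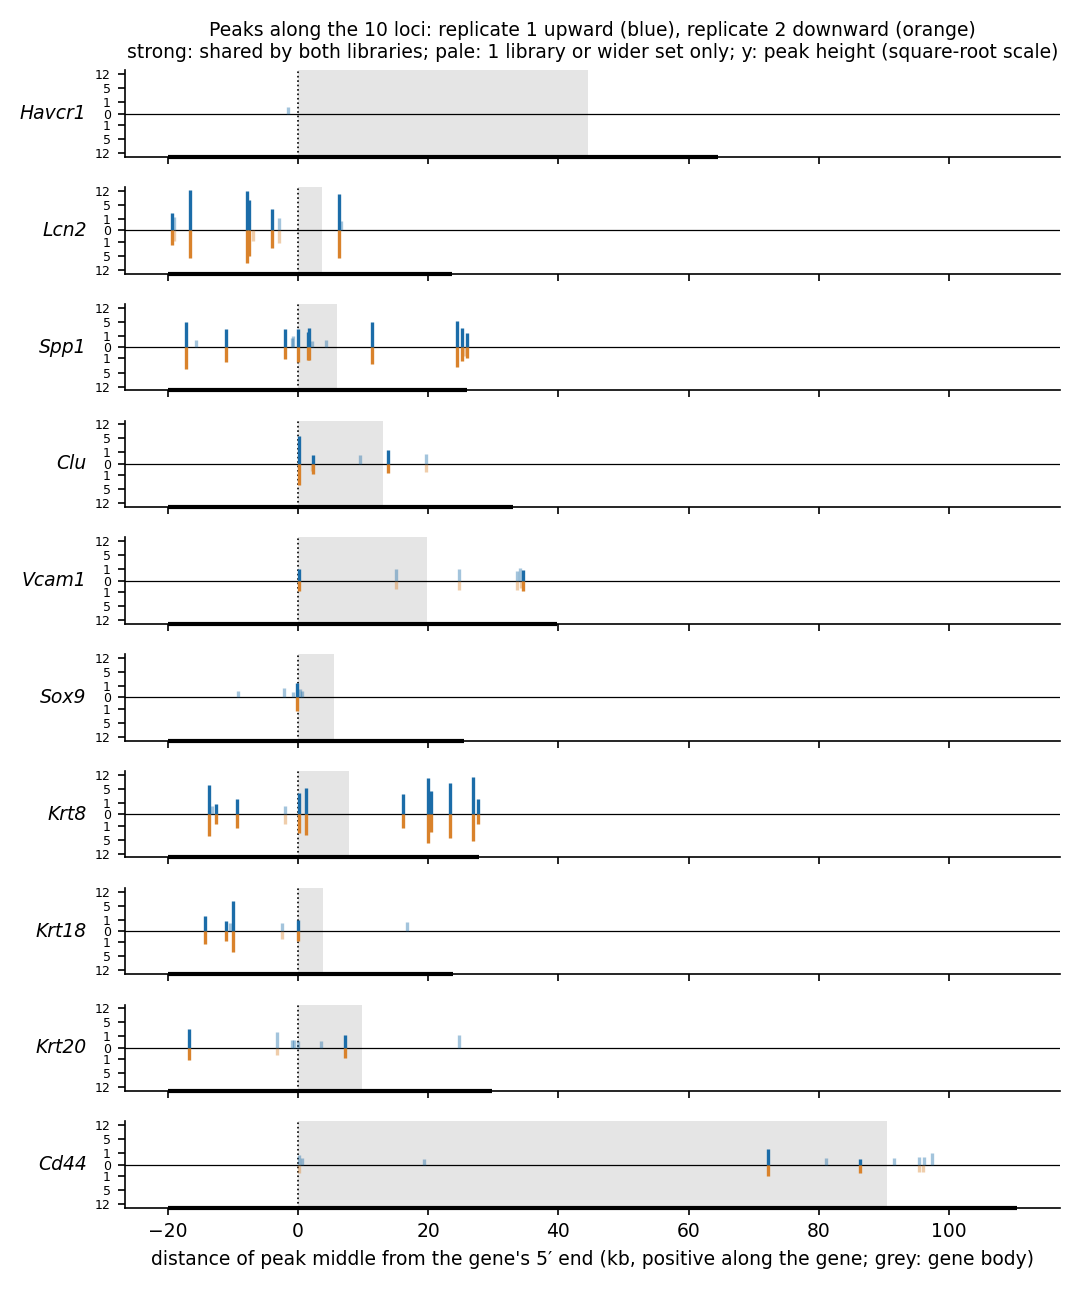
Peaks of each locus by the distance of their middle from the gene's 5′ end (kb), with heights in replicate 1 upward and in replicate 2 downward (square-root scale), shared peaks in strong colour, other peaks pale, the gene body in grey and the examined span as a black bar. Krt8, Spp1 and Lcn2 hold 11, 10 and 6 shared peaks and Havcr1 holds none.

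In 35 of the 38 shared peaks the height was lower in replicate 2, and the median ratio was 0.619, close to the 0.659 of all shared peaks. The ratio ran from 0.427 at a peak 16171 bp from the Krt8 start, beyond its 3′ end, to 1.76 at a low peak in Cd44. The 3 peaks that were not lower in replicate 2 were all low, with heights of 0.278 and 0.489 in Cd44, 0.612 and 0.764 in Clu, and 0.835 and 0.835 beyond the Vcam1 gene.

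**Figure D3:**
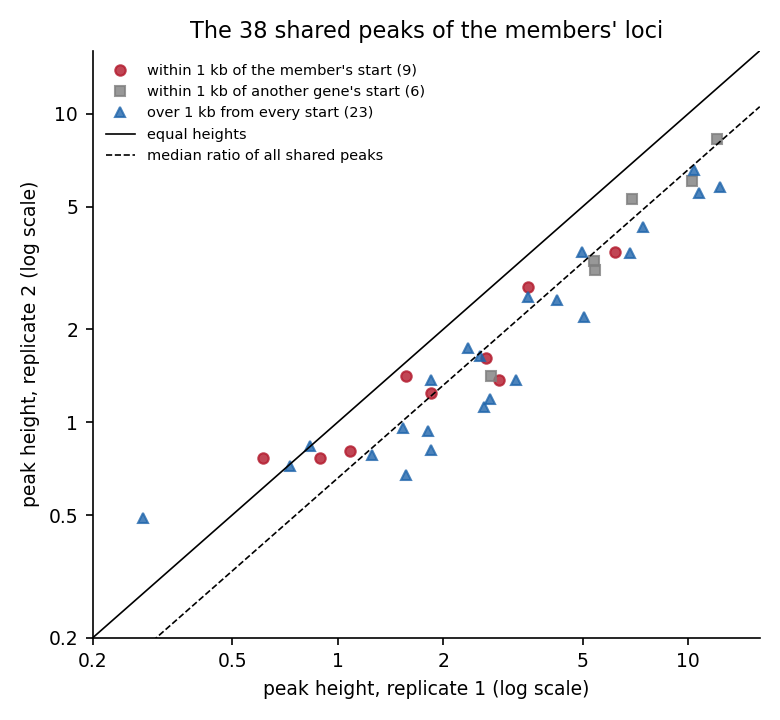
Heights of the 38 shared peaks in replicate 1 (x axis) and replicate 2 (y axis), both on log scales, by their place relative to start sites. Of the 38 points, 35 lie below the line of equal heights, along the dashed line of the median ratio of all shared peaks (0.659).

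Footprints are short stretches inside open DNA that DNase I cut less than their surroundings, as bound proteins can leave. They carried no score of their own in the files. In the loci 176 footprints were called in replicate 1 and 127 in replicate 2, and 74 of replicate 1 matched one of replicate 2 over at least 50% of the shorter. Of the 38 shared peaks, 30 held a matched footprint. The same shares over all footprints and all shared peaks were not computed, so the 74 and the 30 stand without a comparison. The start windows of 4 of the 10 genes (Spp1, Clu, Sox9 and Krt8) held one, against 59% of all genes. Over the whole locus Krt8 had the most, with 28, followed by Lcn2 with 16 and Spp1 with 13, while Havcr1 had none. The remaining loci held from 1 (Sox9) to 6 (Clu). Set against locus length, the median over the 10 genes was just below the 9.17 matched footprints per 100 kb of all genes. In the sequences that follow, read 5′ to 3′ along the gene's strand from mm10, capitals mark bases that lie inside a footprint in each of the libraries, so a footprint of replicate 1 is in capitals only where one of replicate 2 covers it too.

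Lcn2 encodes neutrophil gelatinase-associated lipocalin, a secreted protein that binds iron-carrying siderophores. No peak of either set lay within 1 kb of its start sites, and the authors' files held no interval at a false discovery rate below 0.05 there in either library. Its locus nevertheless held 6 shared peaks. Of these, 3 lay at the starts of neighbours: the peak at 1110008P14Rik had heights of 10.3 and 6.05, and the pair at Ptges2, a prostaglandin E synthase gene, had heights of 6.93 and 5.30 and of 12.1 and 8.26. The highest shared peak in replicate 1, chr2:32404821-32404960, lay in an exon of Ptges2, 16639 bp upstream of Lcn2, at 12.3 and 5.80. It held 2 matches to the CTCF core CCACNAGG, both inside matched footprints. The shared peak nearest to the Lcn2 start, chr2:32392181-32392360, lay 4019 bp upstream in intergenic sequence, with heights of 3.49 and 2.55 and 2 matched footprints. Closer still, 2883 bp upstream, a peak of 1.29 was called in replicate 2, with a counterpart of 1.14 in the wider set of replicate 1. Open chromatin around Lcn2 was therefore found in its flanks and at its neighbours and not at its own start.

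Spp1 encodes osteopontin, a secreted phosphoprotein that binds integrins. Its locus held 10 shared peaks, 3 of them near its own starts. The peak over the 5′ end, chr5:104434981-104435220, had heights of 2.64 and 1.62 and no matched footprint, and also covered a start of another gene, Gm42793. An intronic pair lay 1473 and 1753 bp downstream, near alternative starts, with heights of 1.85 and 1.24 and of 2.88 and 1.38. A match to the AP-1 core TGANTCA lay wholly inside a matched footprint of the latter. This was the only one of 7 AP-1 core matches in the members' shared peaks that did, and for this reason the part of that peak outside annotated exons, chr5:104436781-104436900, is shown.
Spp1 intron: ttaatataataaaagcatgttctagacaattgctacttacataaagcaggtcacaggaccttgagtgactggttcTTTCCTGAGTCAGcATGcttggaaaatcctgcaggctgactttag

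The highest distal peaks of Spp1 were higher than its promoter peaks. They were chr5:104417801-104418020, 17207 bp upstream, at 4.96 and 3.56, and chr5:104446321-104446500, 11293 bp downstream of the 5′ end, at 5.03 and 2.20. Farther downstream, peaks of 5.41 and 3.12 and of 2.74 and 1.42 lay at the start of Pkd2, which encodes the cilium channel polycystin-2. The peak at 11293 bp held 30 bases inside footprints of both libraries, with letters of a second CTCF form, AGNGGGCNC, on the opposite strand. That form was added to the search after the sequences had been seen. It occurred in 5.26% of the members' shared peaks and 6.56% of all shared peaks.
Spp1 distal: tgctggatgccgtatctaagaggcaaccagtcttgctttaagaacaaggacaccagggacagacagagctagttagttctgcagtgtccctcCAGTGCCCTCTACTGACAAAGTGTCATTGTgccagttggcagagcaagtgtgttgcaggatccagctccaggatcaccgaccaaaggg

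Clu encodes clusterin, a secreted chaperone. The peak over its 5′ end, chr14:65968441-65968680, was the highest own promoter peak among the 10 genes, at 6.19 and 3.58, and held 4 matched footprints. A match to the same second CTCF form stood inside one of them, in the 42 bases upstream of the annotated start that are shown. An AP-1 core match elsewhere in the peak touched a matched footprint without lying inside it. A peak at alternative starts 2322 bp downstream had heights of 0.612 and 0.764, and a distal peak at 13858 bp had heights of 1.57 and 0.672.
Clu start: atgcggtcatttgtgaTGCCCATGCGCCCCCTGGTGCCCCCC

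Havcr1 encodes kidney injury molecule 1, a surface receptor by which proximal tubule cells take up dying cells. Its locus of 84.5 kb held no peak of the stricter set in either library. Of all genes 14.5% had none, and among the 4300 genes with loci of 0.8 to 1.25 times its length 5.42% had none. The wider set gave a single peak in replicate 1, chr11:46733519-46733666, with a height of 0.288, 1487 bp upstream of the start, and none in replicate 2. The deposited false discovery rates come from the same alignments as the peaks and are not separate evidence. They held 148 bases below 0.05 in replicate 1, with the lowest rate, 0.00297, inside that wider-set peak, and no base in replicate 2. It was the only one of the 10 loci without a shared peak, and the 250 bases before its start are shown, with no base in a footprint of both libraries.
Havcr1 upstream: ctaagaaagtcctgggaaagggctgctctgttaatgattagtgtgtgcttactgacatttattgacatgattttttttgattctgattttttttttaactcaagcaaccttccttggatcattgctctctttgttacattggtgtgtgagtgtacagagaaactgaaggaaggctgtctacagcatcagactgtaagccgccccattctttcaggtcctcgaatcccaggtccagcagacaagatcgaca

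Vcam1 encodes an adhesion molecule that binds leukocyte integrins and that in kidney also marks tubule cells with incomplete repair. Its promoter peak, chr3:116129381-116129680, had heights of 1.09 and 0.805, contained a match to the NF-kB consensus and held no matched footprint. NF-kB consensus matches occurred in the central 200 bases of 5.26% of the members' shared peaks and of 5.39% of all. The other shared peak, chr3:116095021-116095160, lay 34597 bp from the 5′ end, beyond the gene, at 0.835 in each library. Replicate 1 had 4 further peaks of 0.742 to 1.16, and each had a counterpart of 0.428 to 0.672 in the wider set of replicate 2. Cd44 encodes the receptor for hyaluronan. In its locus of 130.5 kb the promoter peak was called in replicate 1 at 0.640 and only in the wider set in replicate 2, at 0.489. The clearest shared peak was intronic, chr2:102829361-102829520, 72224 bp from the 5′ end, at 1.81 and 0.937, and 61 of its 160 bases lay in footprints of both libraries. It is shown with the Krt18 sequences, with which it shares letters.

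Sox9 encodes a transcription factor of regenerating tubule cells and of the embryonic ureteric tip. A single shared peak was found in its locus, chr11:112782021-112782220, ending just before the start site, with heights of 1.57 and 1.42. This peak also lay 45 bp from a start of another gene, BC006965. Its ratio between libraries, 0.903, was nearer to 1 than the median. A peak at 220 bp inside the gene (0.520) and a peak 2223 bp upstream (0.705) were called in replicate 1 alone. The shared peak is shown because it was low among promoter peaks of genes of like CpG content, as described below. It contained an AP-1 core match, outside the matched footprint.
Sox9 promoter: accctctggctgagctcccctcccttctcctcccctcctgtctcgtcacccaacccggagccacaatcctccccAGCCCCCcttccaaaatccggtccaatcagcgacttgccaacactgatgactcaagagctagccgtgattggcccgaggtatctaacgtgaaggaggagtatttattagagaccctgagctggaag

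Krt8 and Krt18 encode the keratin pair of simple epithelia, which assemble into filaments together. The genes lie back to back, with starts 23.7 kb apart. Together their loci held 12 of the 38 shared peaks, 3 of which lay in both loci, between the genes. The Krt8 promoter peak, chr15:102004301-102004520, had heights of 3.50 and 2.74 and 2 matched footprints, while the Krt18 promoter peak, chr15:102028119-102028263, had heights of 0.891 and 0.764 and none. A peak in the Krt8 gene 1281 bp from its start, chr15:102003001-102003400, was higher than both, at 5.40 and 3.33, with 5 matched footprints. A start of the noncoding gene Gm36026 lay 89 bp from the Krt8 promoter peak and 812 bp from this intronic peak. Beyond the 3′ end of Krt8 stood a row of 6 distal peaks between 16171 and 27691 bp from its start. Their heights were 3.22 and 1.38, 10.4 and 6.57, 4.22 and 2.49, 7.45 and 4.30, 10.7 and 5.53, and 1.85 and 0.815. The peak of 10.7 and 5.53, chr15:101977461-101977680, was the highest distal peak of the locus in replicate 1. It is shown because it held 2 AP-1 core matches, neither inside a matched footprint, and 69 bases in footprints of both libraries.
Krt8 distal: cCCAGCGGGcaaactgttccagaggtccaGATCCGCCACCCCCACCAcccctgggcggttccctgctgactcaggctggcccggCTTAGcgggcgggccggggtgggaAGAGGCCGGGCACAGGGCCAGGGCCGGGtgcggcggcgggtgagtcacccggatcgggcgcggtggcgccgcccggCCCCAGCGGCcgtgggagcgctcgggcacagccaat

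Between the genes, chr15:102018061-102018200, 10049 bp upstream of Krt18, was the highest, at 6.81 and 3.55. The peak 14379 bp upstream, chr15:102013721-102013880, had heights of 1.85 and 1.38, and the one 11112 bp upstream 0.733 and 0.723. The first of these peaks and the intronic Cd44 peak each held the letters GTTGCCATG, the core of the site of RFX proteins, inside a matched footprint. After this was seen, those letters were searched on both strands in all shared peaks, in 200 bases around the middle. They occurred in 3 of the 38 member peaks (7.89%), the third being the peak 14379 bp upstream of Krt18, and in 0.484% of all shared peaks. All 4 matches lay inside matched footprints. Because the letters were chosen from these peaks, the counts describe them and carry no test.
Krt18 distal: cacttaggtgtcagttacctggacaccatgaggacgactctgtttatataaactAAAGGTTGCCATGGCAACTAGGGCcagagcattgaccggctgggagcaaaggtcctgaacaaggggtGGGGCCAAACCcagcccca
Cd44 intron: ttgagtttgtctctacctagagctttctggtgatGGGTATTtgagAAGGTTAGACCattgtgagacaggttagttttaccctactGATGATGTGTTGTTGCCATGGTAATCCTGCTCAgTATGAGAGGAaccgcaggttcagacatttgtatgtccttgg

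Krt20 encodes a type I keratin that appears in severely injured tubule cells. Its start carried no peak of the stricter set. In the wider set replicate 1 had 3 peaks within 1 kb, of 0.306, 0.427 and 0.492, and replicate 2 had none. The shared peaks were chr11:99454881-99455060, 16821 bp upstream, at 2.72 and 1.19 with 2 matched footprints, and chr11:99430861-99431020, in an exon 7209 bp downstream, at 1.25 and 0.784. A peak of 1.95 at 3241 bp upstream in replicate 1 had a counterpart of 0.428 in the wider set of replicate 2. The upstream shared peak held an AP-1 core match outside its footprints and is shown for comparison with Krt8 and Sox9.
Krt20 distal: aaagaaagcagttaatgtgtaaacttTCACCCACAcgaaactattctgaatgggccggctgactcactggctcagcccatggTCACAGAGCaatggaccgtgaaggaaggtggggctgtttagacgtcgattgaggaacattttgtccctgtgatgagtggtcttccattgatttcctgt

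Across these peaks AP-1 core letters TGANTCA stood in 7 of 38 central windows of 200 bases (18.4%), against 7.25% of all 65636 shared peaks. Within the peaks themselves the 7 matches lay in the loci of Spp1 (2 peaks), Krt8 (2 matches in 1 peak), Clu, Krt20 and Sox9. Other motifs also departed from all shared peaks, in both directions. TATA letters TATAAA were in 10.5% against 4.87%, ARE letters TGACNNNGC in 5.26% against 11.5%, and RUNX letters TGTGGT in 2.63% against 11.7%, where 2.63% is 1 of the 38 windows. Shares lay closer together at 18.4% and 20.1% for the SOX letters ACAATG or ACAAAG, 13.2% and 13.3% for the TEAD letters GGAATG, and 18.4% and 23.3% for the GC box GGGCGG. The letters GTTAATNAT (HNF1), CAAAGTCCA (HNF4) and TGACGTCA (CRE) were in none of the 38, against 1.49%, 1.40% and 1.10% of all. In total 20 matches to the 16 motifs searched lay inside footprints of replicate 1 that matched one of replicate 2, of which 10 were GC boxes and 3 were CTCF cores. Most of these GC boxes lay in peaks at the starts of the neighbours 1110008P14Rik, Ptges2 and Pkd2. Of the 20, 16 lay inside a footprint of replicate 2 as well, 8 of them GC boxes and 3 CTCF cores. A match says only that these letters are present.

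Promoters rich in CpG are open in most tissues, so each gene's promoter was set beside genes of like CpG content, in 10 groups of equal size, from lowest to highest, by the CpG ratio, observed over expected, in 500 bases on either side of the 5′ end. Havcr1 (ratio 0.113) and Lcn2 (0.136), which had no promoter peak, were in group 2, where 18.8% of genes had one in both libraries. Havcr1 lay at the lower edge of group 2, and in group 1 the share was 8.98%. Spp1 (0.216) was in group 3, where 29.3% did. Vcam1, Cd44 and Krt8 were in group 4 (42.6%), and Krt20, Clu and Krt18 in group 5 (62.5%). Sox9, at a ratio of 0.804, was in group 9, where 92.5% of genes had a promoter peak in both libraries. Heights in a group were ranked, and medians taken, only among its genes with a promoter peak in that library. In group 4, for example, these were 1169 genes in replicate 1 and 941 in replicate 2, out of 2194. The Sox9 heights of 1.57 and 1.42 compare with medians of 10.4 and 7.42 in group 9 and fall at the 5.23rd and 6.50th percentiles. The Sox9 ratio lay at the lower edge of group 9, and group 8 had medians of 9.70 and 6.85. Krt18 fell at the 11.8th and 5.44th percentiles of its group and Vcam1 at the 19.9th and 8.61st. Cd44 fell at the 9.32nd percentile of its group in replicate 1, the only library with its promoter peak. Clu, at the 61.1st and 52.7th, and Krt8, at the 50.9th and 48.5th, were close to the middle of the genes with a promoter peak in their groups. Spp1 was at the 49.1st in replicate 1 and the 33.5th in replicate 2. Its strongest promoter peak in replicate 1 lay 1753 bp from the 5′ end, around which the CpG ratio was taken.

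**Figure D4:**
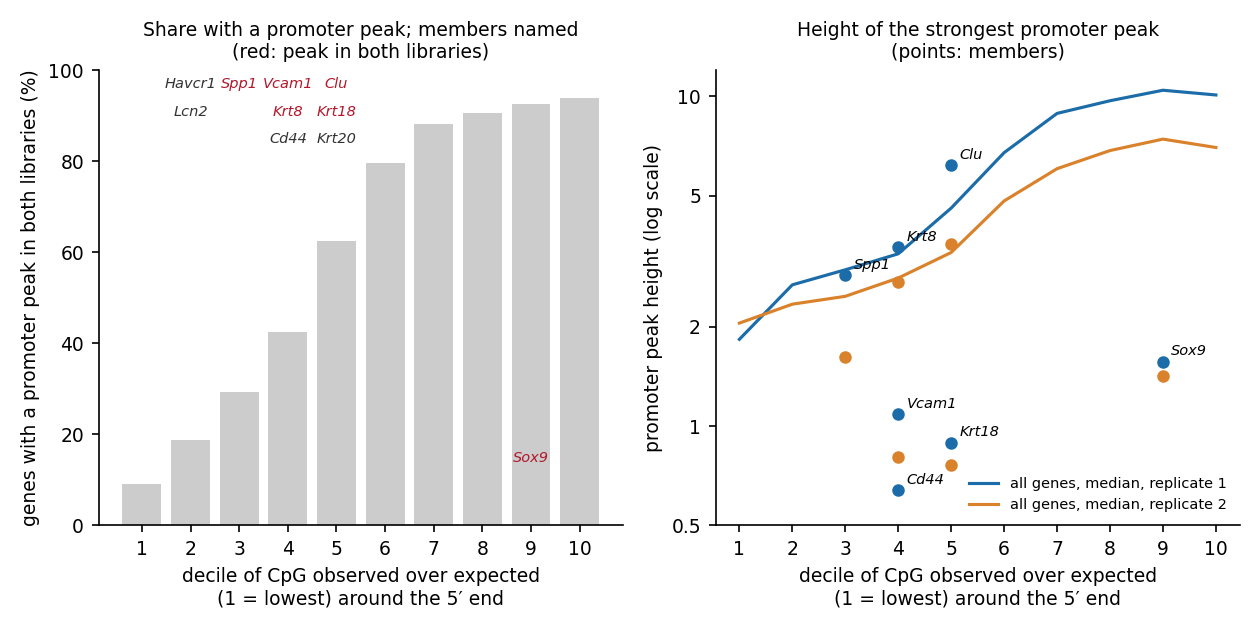
Left, the share of all protein-coding genes with a promoter peak in both libraries (%) in each of 10 groups by promoter CpG ratio, with the 10 genes named at their group and those with such a peak in red. Right, median height of the strongest promoter peak by group (lines, log scale) and the members' heights (points), blue for replicate 1 and orange for replicate 2; Sox9 lies at 1.57 and 1.42 where the medians are 10.4 and 7.42.

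The deposited false discovery rates gave the extent of open DNA without peak calls. At a rate of at most 0.001 in both libraries, 10225 bases of the loci were open, 1.74% of their length, against 1.12% of the joined loci of all protein-coding genes. By locus the order was the other way, with a median over the 10 genes of 1.02% against 1.39% over all genes. Most of the bases, 81.3%, lay in the loci of Krt8, Spp1 and Lcn2. Krt8 led with 3989 bases (8.35% of its locus), then Spp1 with 2295 (5.00%) and Lcn2 with 2028 (4.65%). Clu had 708 bases, Krt18 820, Krt20 355, Vcam1 326, Sox9 268 and Cd44 180, and Havcr1 had none. Start windows with such an interval in both libraries were found for 6 of the 10 genes and for 61.4% of all genes.

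Other genes of injury and repair, 49 in a list of cytokines, adhesion and matrix genes, keratins, growth factors, cell cycle genes and transcription factors, were examined for promoter peaks without a test. They were not set beside genes of like CpG content. Over the CpG groups above, the share with a promoter peak in both libraries ran from 8.98% to 94.0%, which the counts that follow do not take into account. Of the 49, 45 (91.8%) had a promoter peak in both libraries, against 60.7% of all genes. Their median heights were 4.87 and 3.06, below the 8.26 and 5.37 of all genes with such a peak. The highest were Klf6, a zinc finger factor, at 23.5 and 26.3, Tpm1, a tropomyosin, at 27.0 and 18.8, and Stat3, which relays cytokine signals, at 25.2 and 19.2. The other 4, Timp1, Krt19, Areg and Fosl1, had one in replicate 1 only, at 0.575, 0.464, 1.19 and 1.76. Of 10 genes for receptors and partners of the members' products, 6 had a promoter peak in both libraries. Itgav (15.0 and 9.47) and Itgb1 (10.2 and 6.71) encode chains of integrins that bind osteopontin, and Lrp2 (7.46 and 5.11) encodes megalin, which takes up filtered lipocalin. Itga4, which encodes a chain of a Vcam1 receptor, had a promoter peak of 0.418 in replicate 1 only. Itga9, another integrin gene of the list, had one in both libraries, at 3.23 and 1.30. Of the genes for hyaluronan synthases, Has2 and Has3 had one in replicate 1 only, at 1.12 and 2.45, and Has1 had none. Of 16 genes of proximal tubule identity, 14 had one in both libraries, led by Slc6a19 at 15.2 and 16.4, Pck1 at 9.76 and 8.14 and Ggt1 at 8.58 and 7.01. Slc22a8 had none.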

How the data were processed

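DNase-seq of 2 kidney libraries of 1 group was analysed. Per the deposited description, the authors made every file of a library from that library's filtered mm10 alignment. The aligner, the callers and their versions were not given in the sources, and without read totals the depth is unknown. The authors' peak heights are signal values that were all whole multiples, within 0.02, of 1 step per library (0.00928 in replicate 1, 0.0102 in replicate 2); the lowest of the stricter sets was 10 steps. The deposited cut-rate files hold false discovery rates, a p-value unit, all below 0.05. Footprint rows all carry the value 0.01 in the deposited p-value column.

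The members, gene lists and motifs were chosen with earlier results of these data known. All 10 members are named; of other lists, the 3 highest and those without a promoter peak. Start sites came from all transcripts of protein-coding genes in GENCODE M21. The genome sequence matched the build, as 43 of 43 member transcripts were equal. Overlap code gave 0 mismatches in 640 checks on simulated intervals. Python 3.11.15, numpy 2.4.6 and pandas 2.3.3 were used. Alternatives changed windows, flanks, peak sets, overlap rules and libraries; the RFX and second CTCF letters were added after the data had been seen.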

Additional observations from a re-analysis of the deposited data

How the results depend on the processing

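The 6 of 10 genes with a promoter peak in both libraries stayed at 6 or 7 under all alternatives but 1: with the higher 50% of peaks in each library only 3 were left, Spp1, Clu and Krt8, while the share of all genes went from 60.7% to 52.8%. The 38 shared peaks became 12 with no flank, 23 with 10 kb, 68 with 50 kb and 19 with the higher 50% of peaks. The median of 4.84 shared peaks per 100 kb became 7.66 with no flank, 8.79 with the wider peak set and 0.942 with the higher 50% of peaks, and 4.84 to 9.27 with the peaks of 1 library. The 74 matched footprints became 2 when start and end had to be identical, 19 with no flank, and 127 to 176 with the footprints of 1 library. The Krt8 promoter heights became 5.40 and 3.33 with a window of 2500 bp, which takes in its intronic peak. In all, 32 of 45 other values of the counts and medians were within 1.5 times the reported one. Read totals, alleles and cell types were not analysed here.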
